A study of Homo sapiens with 2 samples.

Results

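In KYSE30 cells, an established human cell line from a squamous carcinoma of the esophagus, 1124 of the 18466 regions enriched in a YTHDF3 immunoprecipitation carried no gene symbol but only the name of a sequenced DNA clone or of a database sequence. They were taken by name alone: a dot followed by a number, a start of LOC followed by digits, or a clone library prefix with a hyphen and digits. All 1124 had a dot and a number, none began with LOC, and they bore 938 of the 9275 names on the list. The data are 1 library of RNA recovered with an antibody to YTHDF3 by RNA immunoprecipitation (RIP) and 1 input library. Both came from untreated cells grown in medium with 10% serum. Each region (called a peak here) comes with the authors' own fold enrichment of RIP over input, p and adjusted p, which concern these 2 libraries only. No replicate, control antibody or cells lacking YTHDF3 were analysed here, and read depth is unknown, so every share below describes 1 list and its interval covers counting error only.

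YTHDF3 is a cytoplasmic protein that binds RNA carrying N6-methyladenosine (m6A), a mark placed mainly within messenger RNA. Names of the form RP11-286N22.8 were given by manual genome annotation to transcribed loci that had no symbol yet: the letters and digits before the dot name the clone in a genomic DNA library, and the number after the dot counts the locus on it. Many such loci are long noncoding RNA genes, among them antisense genes, which are transcribed from the other strand of a coding gene, and divergent genes, which start beside a coding gene and run away from it. Without strand information, reads from a gene and from its antisense partner cannot be told apart. The strand setting behind this list is not given in the sources used here, so a fold enrichment of a clone-named peak is uncertain wherever another peak covers the same bases.

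The start regions of 3 coding genes are shown because a clone-named peak on the other strand begins inside each, and they are the 3 of largest fold enrichment among peaks that begin within 250 bases before an opposite-strand start. Sequences are from RefSeq (GRCh38.p14), 250 bases before to 50 after the annotated start, on the strand of the coding gene, and capitals mark the bases that lie inside the clone-named region.
CPSF7 start, chr11:61429926-61430225, minus strand: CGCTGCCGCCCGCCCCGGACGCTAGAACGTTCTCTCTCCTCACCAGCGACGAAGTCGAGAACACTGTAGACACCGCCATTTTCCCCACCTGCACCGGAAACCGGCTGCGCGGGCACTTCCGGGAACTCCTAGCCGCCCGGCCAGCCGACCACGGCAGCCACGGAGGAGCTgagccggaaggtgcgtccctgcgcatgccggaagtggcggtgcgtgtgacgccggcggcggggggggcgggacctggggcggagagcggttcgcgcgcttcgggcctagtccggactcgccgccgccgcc
RAB35 start, chr12:120116704-120117003, minus strand: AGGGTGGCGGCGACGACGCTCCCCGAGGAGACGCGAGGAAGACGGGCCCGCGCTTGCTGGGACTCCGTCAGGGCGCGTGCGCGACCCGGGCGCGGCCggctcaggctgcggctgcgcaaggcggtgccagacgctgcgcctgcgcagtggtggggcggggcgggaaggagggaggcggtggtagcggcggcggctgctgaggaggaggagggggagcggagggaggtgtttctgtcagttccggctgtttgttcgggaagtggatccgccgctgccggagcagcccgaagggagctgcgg
MRPL12 start, chr17:81703117-81703416, plus strand: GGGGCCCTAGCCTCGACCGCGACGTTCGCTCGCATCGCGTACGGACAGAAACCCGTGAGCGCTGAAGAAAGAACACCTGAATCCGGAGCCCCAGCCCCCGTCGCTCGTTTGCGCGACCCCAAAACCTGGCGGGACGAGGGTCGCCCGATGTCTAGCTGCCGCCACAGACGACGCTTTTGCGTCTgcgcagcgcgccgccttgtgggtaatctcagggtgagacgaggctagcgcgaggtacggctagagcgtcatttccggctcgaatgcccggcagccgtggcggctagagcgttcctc

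The capitals run to 81 bases before the annotated start of CPSF7, which codes for a subunit of a messenger RNA cleavage factor, to 154 bases before that of RAB35, a small GTPase of endosome recycling, and to 67 bases before that of MRPL12, a mitochondrial ribosomal protein. The peaks that begin there were RP11-286N22.8 with a fold enrichment of 27.6 (adjusted p 1.58e-44 in the authors' deposited table), RP1-267D11.6 with 21.3 (5.75e-05) and RP13-1032I1.7 with 18.8 (3.80e-05). CPSF7 itself had a best fold enrichment of 17.6 and RAB35 of 3.05, and MRPL12 had no listed peak. The motif GGACT, one form of the sequence in which m6A is placed, was found in the CPSF7 window on both strands and in the RAB35 window on the strand of the gene, and not in the MRPL12 window. In CPSF7 it lay in lower case on both strands, outside the clone-named region, and in RAB35 in capitals. Within these windows, no clone-named region held it on its own strand. Searched on both strands, GGACT stood in 44.2% of 35116 such windows. A boundary of a listed region is not a measured transcription start.

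In all, 80 of the 1064 clone-named peaks on chromosomes with such windows began inside a window of an opposite-strand gene (7.52%, 6.01 to 9.27, exact 95% interval). The share was 13.0% (9.62 to 17.0) of 347 peaks of named noncoding RNA genes, here those with names such as LINC, SNHG or an ending of AS or DT, and 4.78% (4.46 to 5.11) of 16731 peaks with any other name, the named noncoding ones included. For 75 of the 80 the boundary lay before the annotated start of the window, at a median of 103 bases (quartiles 81.5 and 166). A gene can have several annotated starts: the 35116 windows belong to 27305 genes. Further such peaks included AC002076.10 at 160 bases before an annotated start of TFPI2, a protease inhibitor (fold enrichment 18.8). RP4-758J18.2 began 187 bases before that of the cyclin gene CCNL2 (16.3). RP11-553A21.3 began 72 bases before an annotated start of the surface protein gene CD109 (17.3). The region of RP11-553A21.3 lay wholly inside CD109, so that start is not the most upstream end of the gene.

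Most clone-named peaks lay over a peak of another gene on the opposite strand. Of 1124, 688 overlapped such a peak by at least 1 base, or 61.2% (58.3 to 64.1), against 1940 of 17342 other peaks (11.2%, 10.7 to 11.7). Over all 18466 peaks the share was 14.2%. Among peaks of named noncoding RNA genes it was 198 of 355 (55.8%, 50.4 to 61.0). A same-strand peak of another name was overlapped by 212 clone-named peaks (18.9%, 16.6 to 21.3), against 15 of 355 named noncoding peaks (4.23%, 2.38 to 6.87) and 681 of 17342 other peaks (3.93%, 3.64 to 4.23). The share over all peaks was 4.84%. Both kinds of overlap were found for 57 clone-named peaks, and neither for 281 (25.0%), against 14816 of the other peaks (85.4%).

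**Figure D1:**
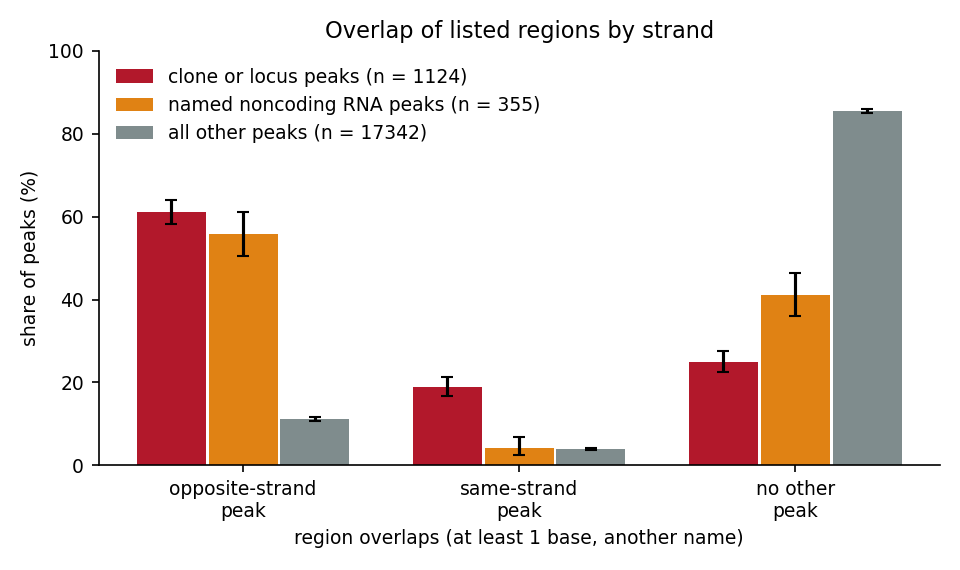
Share of peaks, in percent, whose region overlaps an opposite-strand peak, a same-strand peak or no peak of another name, for clone or locus peaks, peaks of named noncoding RNA genes and all other peaks, which include the named noncoding ones. Bars are shares and whiskers exact 95% intervals; the clone or locus peaks stand at 61.2% for the opposite strand, against 11.2% of all other peaks.

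The opposite-strand overlaps were mostly with coding genes. Taking for each clone-named peak the partner with the most shared bases, 622 of 688 partners (90.4%) matched a protein-coding gene, 24 were themselves clone-named, and the partners bore 568 names. The coding share of the whole list was not computed. Of all its peaks, 6.09% were clone-named and 1.92% were of named noncoding RNA genes. A preference for coding partners is therefore not shown. The partner region was the wider one in 504 pairs, with a median span of 8498 bases, against 1615 for the clone-named region. In 331 pairs (48.1%) the clone-named region lay wholly inside its partner, and in 77 (11.2%) the partner lay inside it. Of the rest, 149 overlapped tail to tail, at their 3' ends, and 131 head to head, at their 5' ends. At least 50% of the clone-named region was shared in 512 of the 688 pairs. The gene covered most often was MTMR3, a phosphatase of membrane lipids, as the partner of 7 clone-named peaks, all of the name RP3-394A18.1.

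Fold enrichments in a pair lay closer together the more of both regions was shared. Within a ratio of 1.25 were 266 of 688 pairs (38.7%, 35.0 to 42.4), and 82 of the 124 pairs in which at least 50% of both regions was shared (66.1%, 57.1 to 74.4). Set against the nearest peak of another name without overlap, the same 688 clone-named peaks were within that ratio in 138 cases (20.1%, 17.1 to 23.2). Across pairs, Pearson's r of the log2 fold enrichments was 0.54 over all 688 and 0.82 over the 124, and 0.064 against the nearest peak without overlap. These are descriptions across sites of 1 pair of libraries, and the 2 regions of a pair share bases and may share reads. In 36 pairs both the fold enrichment and the p were identical, whereas only 12 pairs shared a boundary. The clone-named peak had the smaller fold enrichment in 379 pairs and the larger in 228, with medians of 5.62 for the clone-named peaks and 7.53 for the partners. Where partners shared equally many bases, the one of larger fold enrichment was taken. Against the nearest peak without overlap, the clone-named peak was smaller in 369 cases and larger in 299. The median of those nearest peaks was 6.27.

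**Figure D2:**
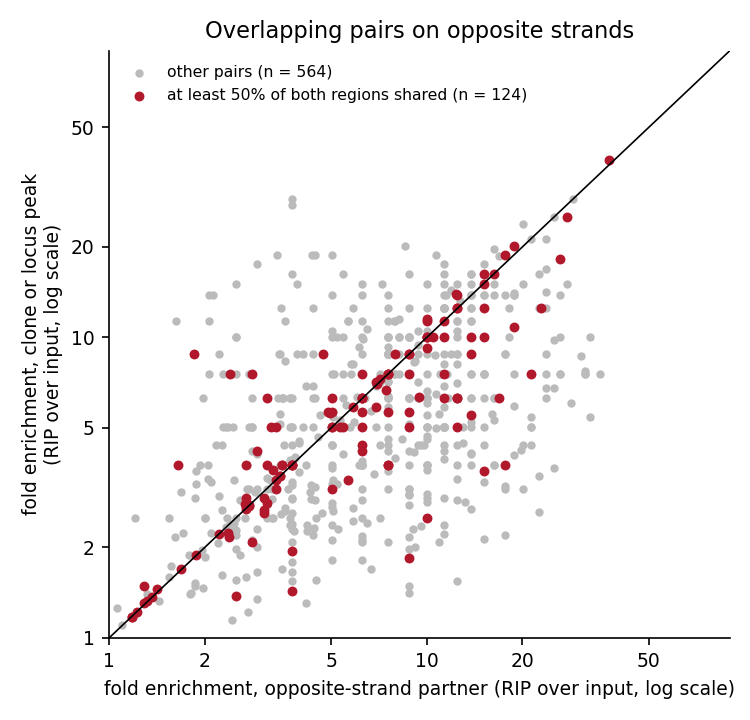
Fold enrichment (RIP over input, log scales) of each of 688 clone or locus peaks on the vertical axis and of the opposite-strand peak it overlaps most on the horizontal axis, with the line of equality. The 124 pairs that share at least 50% of both regions, in red, lie mostly near the line, and 82 of them are within a ratio of 1.25.

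The largest fold enrichment of a clone-named peak was 38.9, in LA16c-306E5.2 on chromosome 16 from 3382113 to 3397745 (adjusted p 6.31e-71 in the authors' deposited table). It lay wholly inside a peak of ZSCAN32, a zinc finger gene on the other strand, whose fold enrichment was 37.6. RP11-6O2.4 on chromosome 15 had 28.9, and so had the peak of SYNM, the gene of the intermediate filament protein synemin, that encloses it. A clone-named region on chromosome 11 from 119336249 to 119337309 had 25.1, equal to the peak of the ubiquitin ligase gene RNF26 around it. CTC-510F12.6 had 25.1 and the enclosing peak of RAB3D, a GTPase of secretory vesicles, 27.6. In these 4 pairs the fold enrichments were within a ratio of 1.25, and whether they rest on the same reads was not tested.

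Other leading clone-named peaks were outside a ratio of 1.25 of their partners or overlapped no other peak. AC108676.1 on chromosome 3 had 28.9, against 3.76 for the LINC00884 peak that encloses it on the other strand and 21.3 for a same-strand peak of ATP13A3, a polyamine transporter gene, which covers 38.8% of it. RP11-452L6.5 on chromosome 16 had 27.6, against 3.76 for ARMC5, whose peak covers 21.2% of it head to head. RP11-359B12.2 on chromosome 12 from 974133 to 990026 had 33.9 (adjusted p 3.47e-08 in the authors' deposited table) and overlapped no other peak. Its region lay over the annotated genes ERC1 on the other strand and RAD52, a recombination gene, on its own. RP11-875O11.3 on chromosome 8 had 25.1 and no overlap with another peak. AP000695.6 on chromosome 21 also had 25.1 and shared 69.7% of its region with AP000695.4, a same-strand locus of the same sequence with 15.1.

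**Figure D3:**
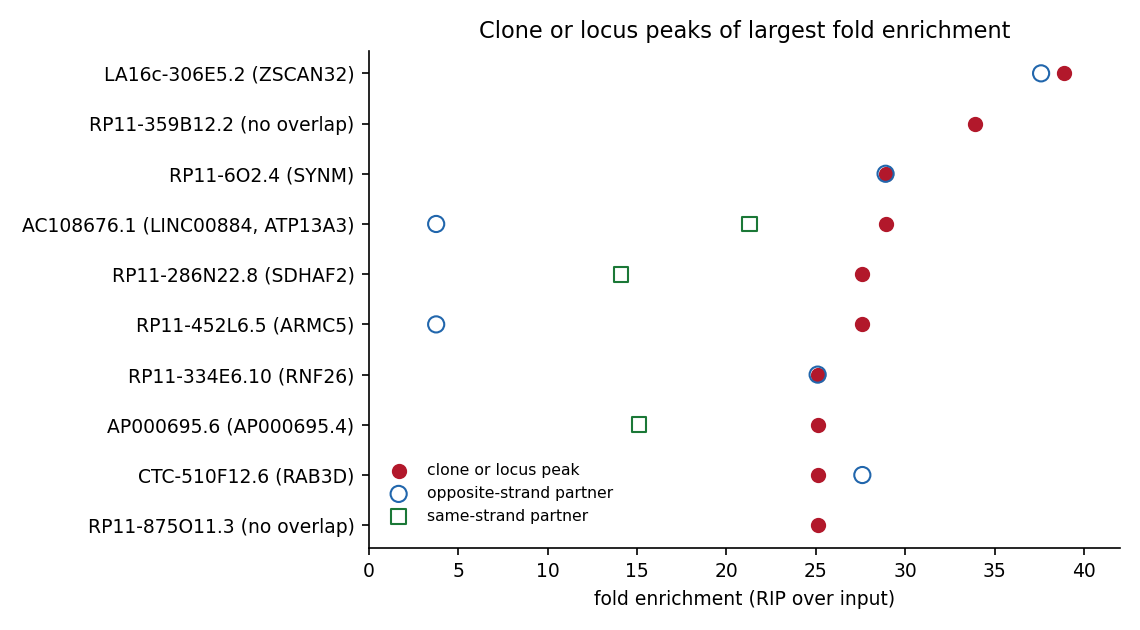
Fold enrichment (RIP over input) of the 10 clone or locus peaks with the largest values, as filled points, with the opposite-strand partner as open circles and the same-strand partner as open squares; partners are named in parentheses. Points and circles coincide for SYNM and RNF26, while LINC00884 and ARMC5 stand at 3.76.

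Among the 10 peaks of largest fold enrichment with an opposite-strand partner, 8 were within a ratio of 1.25 of it and 3 were equal. Beside those above, RP11-328C8.4 had 23.8 and the enclosing peak of PRICKLE1, a gene of planar cell polarity, 20.1. RP11-172H24.4 had 21.3 and the peak of the cytokine gene IL17D 23.8, while CTD-3193O13.12 had 20.1 and that of the anion channel gene LRRC8E 18.8. AC002310.7 and the zinc finger gene ZNF785 both had 21.3, although the second covers only 46.3% of the first. On the same strand, RP11-831H9.11 on chromosome 11 spanned 260 bases inside a peak of INTS5, a subunit gene of the Integrator complex, and both had 22.6. RP11-286N22.8 had 27.6, and 97.7% of its region lay in a same-strand peak of SDHAF2, an assembly factor of succinate dehydrogenase, with 14.1.

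The smallest p-values belonged to other clone-named peaks. The p was listed as 0 for 2 of them, RP11-805J14.5 and RP11-574F21.3. RP11-805J14.5 on chromosome 11 from 70206291 to 70207390 had a fold enrichment of 6.34 and lay inside a peak of FADD, the adaptor of death receptors, with 6.04. RP11-574F21.3, a region of 60677 bases on chromosome 1, had 5.74 and shared 72.9% of its bases with a same-strand peak of DCAF8, a ubiquitin ligase adaptor gene, with 10.7. A second peak of RP11-286N22.8 had 6.78. RP11-872D17.4 had 2.59, against 3.47 in SSRP1, a histone chaperone subunit gene, and RP11-435D7.3 had 2.70, against 5.86 in CLSPN, the gene of the replication checkpoint protein claspin. Each of these 5 peaks overlapped a peak of a named gene.

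Clone-named peaks without any overlap had larger fold enrichments than those with an opposite-strand partner, with medians of 7.53 (7.53 to 7.53, exact 95% interval of the median, n = 281) and 5.62 (5.02 to 6.27, n = 688). Over all 1124 the median was 6.27 (5.65 to 6.27) and the range 1.10 to 38.9, against a median of 5.02 over the 17342 other peaks. Peaks of named noncoding RNA genes had the same median as the clone-named ones, 6.27 (6.12 to 7.53, n = 355). Some values recur often: 7.53 alone was held by 109 clone-named peaks (9.70%) and by 1391 others (8.02%). A fold enrichment of at least 10 was listed for 276 clone-named peaks (24.6%, 22.1 to 27.2), where the share over all peaks was 21.2%. Among named noncoding peaks it was 27.9% (23.3 to 32.9). The adjusted p was under 0.05 for 805 clone-named peaks (71.6%, 68.9 to 74.2), against 12927 of the others (74.5%, 73.9 to 75.2), and over all peaks for 74.4%. For named noncoding peaks the share was 71.5% (66.5 to 76.2). No test of these differences was run.

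By reference gene coordinates, 965 of the 1118 clone-named peaks on numbered chromosomes and X (86.3%, 84.2 to 88.3) lay over a protein-coding gene on either strand, and 31 (2.77%) over no RefSeq gene. With strand, 778 of 1124 overlapped a RefSeq gene of any kind on the opposite strand (69.2%, 66.4 to 71.9), against 18.0% of the other peaks and 21.1% of all peaks. Peaks of named noncoding RNA genes did so as often, in 258 of 355 cases (72.7%, 67.7 to 77.2). A RefSeq gene of another name on the same strand was overlapped by 571 clone-named peaks (50.8%, 47.8 to 53.8). That share was 10.7% of the named noncoding peaks (7.69 to 14.4), 4.60% of the other peaks and 7.41% of all peaks. As few clone names are in RefSeq, a same-strand gene can be the same locus under a later name. Protein-coding genes alone were overlapped on the opposite strand by 752 clone-named peaks (66.9%) and on the same strand by 270 (24.0%). A RefSeq long noncoding RNA gene on the same strand was overlapped by 319 (28.4%, 25.8 to 31.1). The shares by kind of gene, and over no gene, were computed for clone-named peaks only. Whether they are particular to these peaks is therefore not shown. By its symbol, the noncoding gene with the most shared bases was an antisense gene (AS) for 167 of these, a divergent transcript (DT) for 66, an uncharacterised LOC entry for 65 and an intergenic LINC gene for 3. Only 3 of the 938 names were themselves found in RefSeq: CTC-338M12.4, CTC-534A2.2 as an older name of SHLD3, a gene of DNA end protection, and LA16c-380H5.3 as one of GREP1. Their fold enrichments were 5.02, 6.27 and 10.0. Of the 31 peaks over no RefSeq gene, AC108676.1 had the largest fold enrichment, followed by a peak of RP11-734K2.4 with 18.8, RP11-58O9.2 with 18.8, RP11-458J1.1 with 17.1 and RP11-467D6.1 with 13.8. None of the last 4 overlapped another peak.

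Inside long opposite-strand genes, clone-named peaks lay toward the 3' end. Of 451 that were wholly inside an opposite-strand protein-coding gene of over 10000 bases, 142 had their midpoint in the last 10% of the gene's length, at its 3' end (31.5%, 27.2 to 36.0), 77 in the adjoining 10%, and 32 in the first 10%, at its 5' end (7.10%, 4.90 to 9.87). Peaks of named noncoding RNA genes had 35 of 126 in the last 10% (27.8%, 20.2 to 36.5), and all other peaks inside opposite-strand genes 234 of 671 (34.9%, 31.3 to 38.6). Position was taken along the gene with its introns.

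Clone-named regions were short. Their median span was 1631 bases (1468 to 1799), against 3562 (3385 to 3790) for the other peaks and 2850 (2291 to 3918) for named noncoding RNA genes. At most 1000 bases were spanned by 390 of them (34.7%), against 4971 of the others (28.7%), and over 100000 bases by 12 (1.07%), against 703 (4.05%). The narrowest, RP5-1014D13.2 on chromosome 22, spanned 61 bases within the annotated gene EIF3L, a translation initiation factor subunit, on the same strand, with a fold enrichment of 1.44. AC109333.10, of 117 bases, had 2.0 and lay inside a peak of the kinesin gene KIF1C with 2.93. RP11-161H23.5, of 119 bases, had 1.37, against 1.36 in the tubulin gene TUBA1C. CTC-366B18.2, also of 117 bases, had 4.39, against 5.02 in the DNA polymerase gene POLK, with an adjusted p of 0.335 in the authors' deposited table. CTD-2650P22.2, of 120 bases, had 2.51 and no overlap with a peak.

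**Figure D4:**
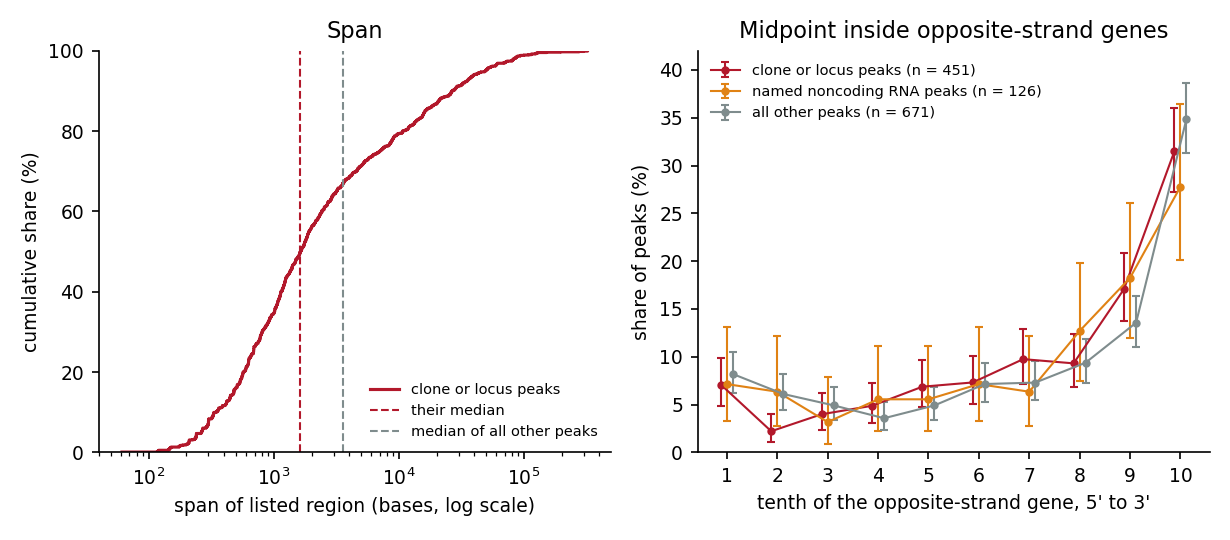
Left, cumulative share of clone or locus peaks by span of the listed region (bases, log scale), with dashed lines at their median of 1631 and at the median of 3562 of all other peaks. Right, share of peaks by position along the opposite-strand coding gene that holds them, in bins of 10% of its length, with exact 95% intervals; the clone or locus peaks reach 31.5% in the last bin.

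The widest region was RP11-103J8.1 on chromosome 20, 321997 bases from 10672928 to 10994924, with a fold enrichment of 8.78. It met the peak of JAG1, a ligand of Notch receptors (3.43), head to head over 0.339% of its length. AC007563.5 on chromosome 2, of 299616 bases, had 6.27, against 8.78 in IGFBP5, a binding protein of insulin-like growth factors, which it also met head to head. RP11-144F15.1 on chromosome 12 had 11.3, against 12.5 in the RNA polymerase subunit gene POLR3B, and RP11-654A16.3 on chromosome 15 had 5.02, against 11.3 in the growth factor receptor gene IGF1R. RP11-867G2.8 on chromosome 11 and the peak of AMOTL1, a gene of cell junctions, both had 13.8. In these 5 pairs the partner covered between 0.339% and 17.4% of the clone-named region.

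Some clone-named regions hold microRNA genes, and those on the same strand are shown since the listed region runs over them. Mature sequences are from RefSeq (GRCh38.p14), with the seed, bases 2 to 8, in capitals, a single arm of each microRNA; no seed is shared among them.
hsa-miR-196a-5p: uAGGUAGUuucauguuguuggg
hsa-miR-615-3p: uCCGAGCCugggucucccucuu
hsa-miR-421: aUCAACAGacauuaauugggcgc
hsa-miR-374b-5p: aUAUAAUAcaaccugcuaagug
hsa-miR-554: gCUAGUCCugacucagccagu

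Of the 1124 regions, 8 contained 11 microRNA genes, 5 of these on the same strand in 3 regions. The share of other peaks that hold a microRNA gene was not computed, so whether 8 is many or few is not shown. RP11-834C11.12, of 48686 bases on chromosome 12 from 53985845 to 54034530, runs through the HOXC cluster of developmental transcription factor genes and holds MIR196A2 (miR-196a) and MIR615 (miR-615). Its fold enrichment was 2.38 (adjusted p 6.61e-09 in the authors' deposited table), against 8.78 for the HOXC9 peak that covers 15.7% of it. RP3-368A4.5 on the X chromosome, over the annotated gene FTX, a noncoding RNA gene of the X inactivation centre, holds MIR421 and MIR374B with a fold enrichment of 4.70. RP11-74C1.4 holds MIR554 and had 3.76 (adjusted p 0.0501 in the authors' deposited table), inside a same-strand peak of TUFT1 with 2.28. RP5-1029K10.2 had 16.3, the largest of the 8, with MIR6165 on the other strand, and met a peak of NGFR, a neurotrophin receptor gene, with 13.8. The list does not tell whether a host region or a mature microRNA was recovered.

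Chromosomes differed in how many of their peaks were clone-named. Over the list as a whole 6.09% of peaks were. The largest counts were 115 on chromosome 19, 110 on chromosome 16 and 103 on chromosome 17. As a share of a chromosome's own peaks, chromosome 16 led with 110 of 1012 (10.9%, 9.02 to 13.0), followed by chromosome 22 with 44 of 478 (9.21%, 6.77 to 12.2) and chromosome 19 with 115 of 1285 (8.95%, 7.45 to 10.6). Leaving out Y and the mitochondrial genome, which hold 1 peak each and no clone-named one, the lowest shares were on the X chromosome with 6 of 478 (1.26%, 0.462 to 2.71), chromosome 4 with 17 of 640 (2.66%, 1.55 to 4.22) and chromosome 3 with 30 of 966 (3.11%, 2.10 to 4.40). The intervals of chromosomes 16, 22 and 19 overlap one another, and none of them overlaps that of the X chromosome. The 44 peaks of chromosome 22 bore 27 names, against 91 for the 110 of chromosome 16 and 100 for the 115 of chromosome 19. The intervals treat peaks of the same name as independent, which they are not. All 6 peaks on unplaced scaffolds were clone-named, among them AC145212.2 with 13.8 and AC145212.1 with 12.5, which overlap on the same strand. On the plus strand lay 541 clone-named peaks (48.1%), against 52.3% of the other peaks, and on the minus strand 583.

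**Figure D5:**
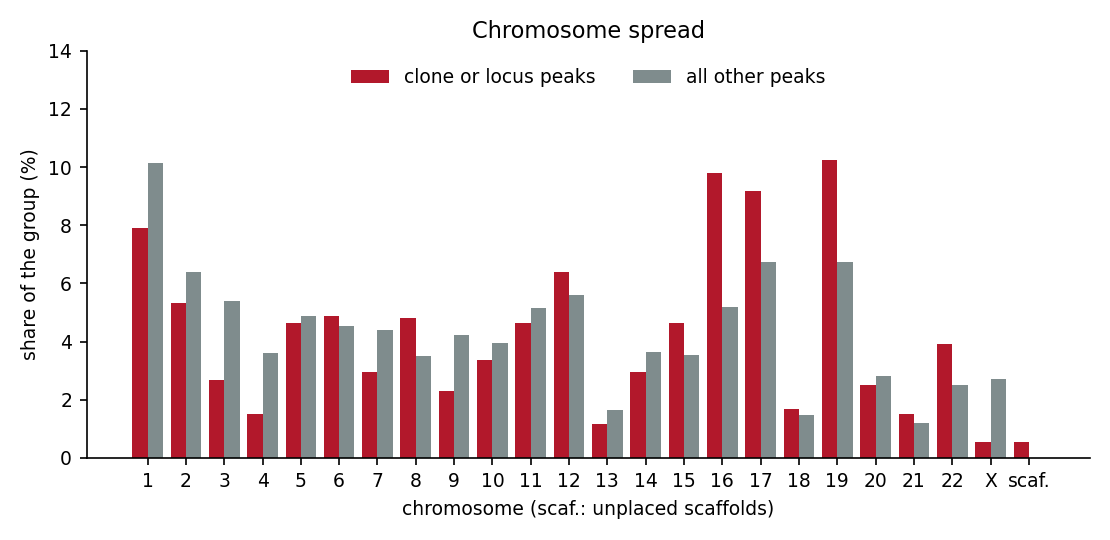
Share, in percent, of the 1124 clone or locus peaks and of the 17342 other peaks that lies on each chromosome or on unplaced scaffolds. Clone or locus peaks exceed the others most on chromosomes 16 and 19 and fall furthest below them on chromosomes 3 and 1, with 0.534% of them on the X chromosome.

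The opposite-strand overlap was common on most chromosomes. It ranged between 81 of 103 clone-named peaks on chromosome 17 (78.6%) and 2 of 6 on the X chromosome (33.3%), with 0 of 6 on the unplaced scaffolds. By name, 552 peaks came from the RP11 library under 461 names, 212 bore a database sequence accession, and 102 came from the CTD library. Their opposite-strand shares were 62.7% (58.5 to 66.7), 56.6% (49.6 to 63.4) and 60.8% (50.6 to 70.3). Smaller name types spread further: 22 of 24 CTB peaks had such an overlap (91.7%, 73.0 to 99.0), an interval wholly above that of RP11, against 5 of 14 CTA peaks (35.7%, 12.8 to 64.9) and 4 of 13 XX peaks (30.8%, 9.09 to 61.4). The 938 names came from 833 clones or sequences, of which 87 gave more than 1 name. Peaks of 1 clone are neighbours and are not independent.

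Most names had a single peak (794), while 114 had 2 and 30 had 3 or more. RP3-394A18.1 on chromosome 22 had the most, 7 peaks between 30007268 and 30027576 with fold enrichments between 2.37 and 10.0, and all lay over MTMR3 peaks on the other strand. Of these 7, 6 also lay within a same-strand peak of HORMAD2-AS1 with 5.02. CTC-432M15.3 on chromosome 5 had 5 peaks of 1.53 to 7.53, each over a same-strand peak of RAPGEF6, an exchange factor gene of Rap GTPases. At 1.53 the fold enrichment and p of 1 of them equalled those of its RAPGEF6 partner. LL22NC03-86G7.1 had 4 peaks of 2.33 to 13.8, all over peaks of the topoisomerase gene TOP3B. AC062029.1 and CTA-445C9.14 had 4 each, of 4.39 to 16.3 and 2.61 to 7.53, with no peak of another name over them. Listed regions of the same name overlap one another here, so the 4 are not separate sites. For AC062029.1, 88629816 to 88631372 lies inside 88628256 to 88631819. For CTA-445C9.14, 26513467 to 26513912 lies inside 26513433 to 26514568. The adjusted p in the authors' deposited table was under 0.05 for 1 of the 4 AC062029.1 peaks and for all 4 of CTA-445C9.14. It was under 0.05 for 5 of the 7 peaks of RP3-394A18.1, 4 of the 5 of CTC-432M15.3 and 2 of the 4 of LL22NC03-86G7.1. The regions of AC062029.1 and CTA-445C9.14 lay over the annotated divergent transcripts EIF2AK3-DT and TFIP11-DT on the same strand.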

How the data were processed

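Per the labels' protocols, RNA of the YTHDF3 RIP library and of the input library (1 each) was fragmented, copied with random hexamers, tagged with molecular identifiers and sequenced as paired reads of 150 bases. The submitters' processing notes name hg38 as the build. Which aligner, peak caller, annotation and strand setting were used is not given in the sources used here. The authors' deposited list gives each peak a fold enrichment, which is a ratio of RIP over input, and a p-value and adjusted p-value on a linear scale, with its length in bases per the file headers. Depth per library is unknown.

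Starts were counted from 0 in the list, since 744 equalled a RefSeq gene start when read so and 65 when read as counted from 1; they are printed counted from 1. Overlaps, shares with exact (Clopper-Pearson) 95% intervals and medians with exact order-statistic intervals were computed in Python 3.11.15 with pandas 2.3.3 and scipy 1.17.1; overlap counting was tested on simulated data. Gene strand was known for 28724 of 59792 RefSeq genes, 27305 through the start-site table and 1419 through the list; chromosome 8 has no start-site windows here. No test between conditions is possible with 1 library of each kind.

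The members and groups were chosen with earlier results of these data known. Named peaks are the 10 of largest fold enrichment, the 5 of smallest p, the 5 widest, the 5 narrowest, the 5 names with the most peaks and the leading overlapping pairs (10 on opposite strands, 5 on the same strand). The planned promoters, of clone-named genes themselves, could not be shown, as none of the 3 matched names reached its annotated start. The windows shown instead, the microRNA regions, the peaks over no RefSeq gene and the ratio of 1.25 were chosen after values were seen.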

Additional observations from a re-analysis of the deposited data

How the results depend on the processing

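Of 55 recomputed values, 48 lay within the 95% interval of the reported value or, for the count of peaks, within 1.5 times it. Some of the 48 could hardly differ. Keeping only names with a dot and a number kept all 1124 peaks, so its values were fixed in advance. Leaving out names that match RefSeq kept 1121, and counting starts from 1 left both overlap shares between peaks unchanged. Counting only overlaps of at least 50% of the clone-named region lowered the opposite-strand share to 45.6% and the same-strand share to 13.7%, against 5.48% and 2.88% for all other peaks, and the shares over RefSeq genes of any kind to 54.6% on the opposite strand, reported as 69.2%, and to 44.6% on the same strand, reported as 50.8%. The opposite-strand share was 57.0% without peaks over 100000 bases and 50.2% among peaks whose fold enrichment reached the median over all peaks, where that of all other peaks was 10.3%. With protein-coding RefSeq genes alone, the same-strand share of 50.8% became 24.0%. By construction, the 50% minimum and the protein-coding restriction count fewer overlaps. Only 12 clone-named peaks span over 100000 bases, too few for the fall to 57.0%, so overlaps with wide partners were lost as well. The cause of the shift to 50.2% was not tested. An adjusted p under 0.05 left 805 peaks, with an opposite-strand share of 61.7%. Chosen after seeing the data were partners without a clone name (59.6%), starts counted from 1 and leaving out unplaced scaffolds. Restricting to LOC names gave no value, since none occurs. No paired analysis was possible because each group has 1 library. Without counts, the precision of a fold enrichment is unknown.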
